A study of Mus musculus with 15 samples.

Results

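Chromatin accessibility at 9 genes of the NF-kappaB system was read from ATAC-seq counts of tumour cells that had been sorted out of implanted mouse pancreatic tumours. ATAC-seq uses a transposase that cuts open DNA, so that more reads in a peak mean more accessible DNA or more copies of it. The genes were the 5 transcription factor subunits Nfkb1, Nfkb2, Rel, Rela and Relb and the 4 regulators Nfkbia, Nfkbiz, Tnfaip3 and Bcl3. Their members in the data were the 63 of 67945 merged peaks that overlapped the gene body or lay within 20 kb of it in mm10, and 54 of the 63 had enough counts to be tested. In the T cell high group 2838c3, 6421c2, 6499c4, 6555c3, 6620c1 plus 7160c2 gave 6 clones. The T cell low group held 7, with 2699c4, 6419c1, 6419c5, 6422c1, 6499c3, 6556c3 plus 6694c2. Every clone was grown under the skin of C57BL/6 mice without treatment, and 50000 tumour cells were sorted 3 weeks after implantation. A group is a set of clones with 1 library each, so a difference between groups is read against the spread between clones. The labels used here do not give the age of the mice, the alleles of the tumour cells or whether tumours of several mice were pooled.

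NF-kappaB is a family of dimeric transcription factors that cells hold inactive in the cytoplasm and release when receptors for cytokines or microbial products are engaged. In the canonical arm, RelA or c-Rel pairs with p50 and is held by the inhibitor IkappaB-alpha. In the non-canonical arm, RelB pairs with p52 after p100 is processed. Nfkb1 encodes p105, the precursor of p50, and Nfkb2 encodes p100, the precursor of p52. Several of the genes are themselves induced by NF-kappaB and limit it, above all Nfkbia, which encodes IkappaB-alpha, and Tnfaip3, which encodes the ubiquitin-editing enzyme A20. Nfkbiz (IkappaB-zeta) and Bcl3 encode nuclear members of the IkappaB family that act with p50 or p52 on DNA. In epithelial tumours the pathway is known as a driver of inflammatory cytokine and chemokine genes.

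Libraries held between 968296 and 7369228 counts in peaks. Promoter-window peaks of cell type markers were summed to describe what else the sorted cells could hold. Of the 8 pan-leukocyte markers with a promoter sequence, 5 had such a peak, and their summed level was 9.69 to 38.0 CPM (counts scaled to a common library size) in T cell high clones, against 13.3 to 36.4 CPM in T cell low clones. Cd3e, Cd3d, Cd3g, Lck, Cd5 and Cd8a had no promoter-window peak, and Tcf7 was the 1 T cell marker of 7 with one, at 13.9 to 34.0 CPM in T cell high clones and 16.4 to 32.3 CPM in T cell low clones. Cd68 alone of 7 macrophage markers had one (5.94 to 9.65 CPM in T cell high clones, 1.82 to 18.4 CPM in T cell low clones). For endothelial markers the count was 0 of 5. Postn and Twist1, 2 of 5 fibroblast markers, summed to 4.91 to 58.8 CPM in T cell high clones (median 46.7) and 9.16 to 53.1 CPM in T cell low clones (median 23.9). The low end in T cell high clones was 2838c3 alone, the other 5 had 41.3 to 58.8 CPM, and 1 of the 7 T cell low clones lay above 41.3 CPM. The part of this difference in the results that follow was not tested. Of the epithelial markers Krt7, Krt8, Krt18, Cldn4 and Muc1 had one, 5 of 6, at 46.0 to 100.3 CPM in T cell high clones against 42.2 to 91.9 CPM in T cell low clones, and Epcam had none. The groups overlapped for every marker list with a peak.

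The RefSeq promoter table (GRCm38.p6, the assembly that mm10 represents) gave windows of 250 bases before to 50 bases after a start for 6 members, Nfkb2, Rel, Rela, Nfkbia, Tnfaip3 and Bcl3. Nfkb2 had 3 such windows and Tnfaip3 had 2, which made 9 windows, and each lay in or overlapped a peak. The 4 windows printed here were chosen because they hold kappaB consensus sites, the letters that NF-kappaB dimers are known to bind, in a factor gene of each arm and in both main feedback genes. Capitals mark matches to the consensus, and overlapping matches run together.
Nfkb2 (chr19:46304487-46304786, plus strand): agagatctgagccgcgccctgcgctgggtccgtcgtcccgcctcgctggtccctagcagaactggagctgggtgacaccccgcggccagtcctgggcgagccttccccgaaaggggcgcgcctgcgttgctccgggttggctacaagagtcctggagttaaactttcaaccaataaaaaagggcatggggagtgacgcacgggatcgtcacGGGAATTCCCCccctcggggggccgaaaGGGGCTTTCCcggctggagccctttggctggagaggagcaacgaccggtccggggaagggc
Rel (chr11:23770920-23771219, minus strand): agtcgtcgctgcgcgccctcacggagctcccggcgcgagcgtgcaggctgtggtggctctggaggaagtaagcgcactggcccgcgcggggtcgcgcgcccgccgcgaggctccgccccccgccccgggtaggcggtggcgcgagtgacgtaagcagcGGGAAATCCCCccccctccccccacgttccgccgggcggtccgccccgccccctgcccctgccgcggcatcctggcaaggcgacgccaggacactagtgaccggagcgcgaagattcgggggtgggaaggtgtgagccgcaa
Nfkbia (chr12:55492598-55492897, minus strand): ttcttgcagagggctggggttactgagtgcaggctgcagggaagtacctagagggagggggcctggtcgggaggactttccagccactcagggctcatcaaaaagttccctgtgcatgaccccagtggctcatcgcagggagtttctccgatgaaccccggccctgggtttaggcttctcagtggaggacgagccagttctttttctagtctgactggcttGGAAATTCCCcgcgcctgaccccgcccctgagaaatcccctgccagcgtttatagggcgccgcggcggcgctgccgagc
Tnfaip3 (chr10:19015361-19015660, minus strand): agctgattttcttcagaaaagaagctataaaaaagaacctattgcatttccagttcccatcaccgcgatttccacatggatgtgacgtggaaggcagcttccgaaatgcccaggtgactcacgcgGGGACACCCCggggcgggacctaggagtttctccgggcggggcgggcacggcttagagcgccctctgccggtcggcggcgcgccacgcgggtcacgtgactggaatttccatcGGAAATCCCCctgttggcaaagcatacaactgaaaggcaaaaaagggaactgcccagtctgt

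A broad kappaB pattern (GGG, any 5 bases, CC, on either strand) was found in all 9 windows of the 6 members, but also in 50.8% of all 32851 windows in the table. The stricter kappaB consensus, which asks in the middle for a purine, any base, A or T, and 2 pyrimidines, matched in 7 of the 9 windows and in 5 of the 6 genes. It matched in 4.51% of all windows and in 5.14% of the 27025 genes of the promoter table. The Nfkb2 windows that start at chr19:46305445 and chr19:46305680 overlap and share 1 GGGACTTTCC, so that site counts in both. The printed Nfkb2 window held 3 matches at different positions, a number of matches reached by 0.0517% of all windows. Its GGGAATTCCC and GGAATTCCCC overlap by all but 1 base and start 39 and 38 bases before the transcript start on which the window is set, and GGGGCTTTCC starts 11 bases before it. That start lies inside the Nfkb2 gene body used here, which begins farther upstream. In the Nfkbia window GGAAATTCCC starts 29 bases before the window's start site, and in the Tnfaip3 window GGAAATCCCC starts 12 bases and GGGACACCCC 125 bases before it. Rel held GGGAAATCCC and the overlapping GGAAATCCCC, and Bcl3 held GGGAAGTCCC just after its start. The Rela window had no match to the consensus. The median GC content was 65.7% in the members' windows and 52.7% in all windows, and its part in the match counts was not tested. A match is a run of letters and not a measured binding site.

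The promoter peaks had reads in every clone. For Nfkb1, Relb and Nfkbiz, which the promoter table did not hold, the strongest peak within 1 kb of an end of the gene was used in place of a promoter-window peak, a choice made after seeing the data. Raw counts in these 9 peaks ran from 5 to 779 per library. Per kb of peak, Nfkbia had the highest mean over the 13 clones at 61.5 ± 15.8 CPM per kb (SD, n = 13), followed by Rel at 55.5 ± 13.05, Relb at 52.5 ± 17.2 and Nfkb2 at 39.7 ± 8.22. Rela (29.9 ± 6.62), Tnfaip3 (28.1 ± 6.38), Bcl3 (25.5 ± 10.6), Nfkb1 (24.4 ± 6.62) and Nfkbiz (18.2 ± 6.82 CPM per kb) were lower. The first 3 genes in this order lay within 1 SD of each other, as did Rela, Tnfaip3, Bcl3 and Nfkb1. The order is one of chosen peaks and not of genes. A peak inside Nfkbiz (chr16:55821549-55822747) had a mean of 79.2 CPM per kb, above all 9 of them.

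The promoter or gene-end peaks chosen for the members (1 per gene, the best counted) mostly varied less between clones than their other peaks. The SD of log2 CPM over the 13 clones had a median of 0.34 in these 9 peaks, with a range from 0.29 to 0.58. In the other 45 tested member peaks the median was 0.63, with a range from 0.31 to 1.21. They include the peak at chr10:19011859-19012102, which overlaps the second Tnfaip3 window and had an SD of 0.94. Across the genome the median SD was 0.43 in 9859 promoter-window peaks, chosen as for the 6 members with a promoter window, and 0.70 in 49393 other peaks. No gene-end peaks were chosen for that set, unlike for Nfkb1, Relb and Nfkbiz. The better counted peaks had the smaller SD, and the mean count per library had a median of 136 in the members' promoter or gene-end peaks and 30.2 in their other peaks. In deciles of all tested peaks by mean count, the median SD was 0.45 around a count of 91.6 and 0.37 around 168. It was 0.68 around a count of 32.9. The parts of depth and of peak kind in the members' difference were not tested.

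**Figure D1:**
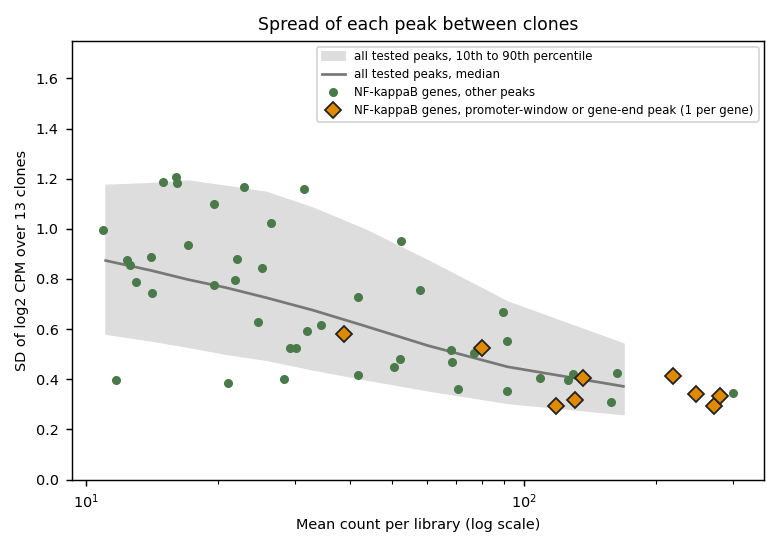
SD of log2 CPM over the 13 clones (vertical axis) against the mean count per library (horizontal axis, log scale) for the 54 tested peaks of the NF-kappaB genes; the line and band give the median and the 10th to 90th percentile of all 59252 tested peaks by decile of mean count. Diamonds, 1 promoter-window or gene-end peak per gene, have SDs of 0.29 to 0.58, and circles, the other member peaks with the one at the second Tnfaip3 window among them, 0.31 to 1.21.

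The most variable peak was 19176 bp outside Tnfaip3 (chr10:19034586-19035307, SD 1.21, higher than 94.6% of tested peaks). It ran from 1.03 through a median of 6.40 to 7.59 CPM in T cell high clones, against 0.680 through 2.29 to 20.4 CPM in T cell low clones, with 6419c5 the highest of all. The Nfkb1 peak with the largest SD, 1.19, lies inside the gene (chr3:135606901-135607562) and was highest in the T cell high clone 2838c3 at 14.98 CPM and next in the T cell low clone 2699c4 at 11.6 CPM. At Rela the most variable peak lies 5837 bp outside the gene (chr19:5653971-5655247, SD 1.16), where 2838c3 had 0.517 CPM and the other 5 T cell high clones 5.84 to 17.6 CPM, against 2.94 to 18.6 CPM in T cell low clones. In the other 6 genes the largest SD of a peak ran from 0.53 at Nfkb2 to 1.17 at Bcl3. The clones differed severalfold at each of the 3 peaks described, but the differences did not follow the groups.

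The groups were compared at each peak to ask whether chromatin at these genes in the tumour cells went with the T cell content of the tumours. By edgeR's quasi-likelihood test with Benjamini-Hochberg adjustment over 59252 peaks, 0 of the 54 tested member peaks passed an adjusted p of 0.05, and the smallest adjusted p was 0.534. The test passed 0 peaks in the whole table (0%), so this says nothing particular about the NF-kappaB genes. DESeq2's Wald test passed 0.0793% of all peaks (47 peaks) and 0 member peaks, and limma-voom passed 0 of either. At an unadjusted p under 0.05, edgeR had 3 of 54 member peaks, all lower in T cell high clones, beside 6.83% of all peaks in both directions and 2.97% lower. The groups did not overlap at 0 of the 54 member peaks, and at 0.162% of all peaks. More member peaks had a fold change below 0 (36) than above (18), with a median log2 fold change (T cell high over T cell low) of -0.12, while 48.7% of all tested peaks were below 0 with a median of 0.01. Peaks of 1 gene and neighbouring genes share their DNA copies, so these 54 are not 54 independent values.

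**Figure D2:**
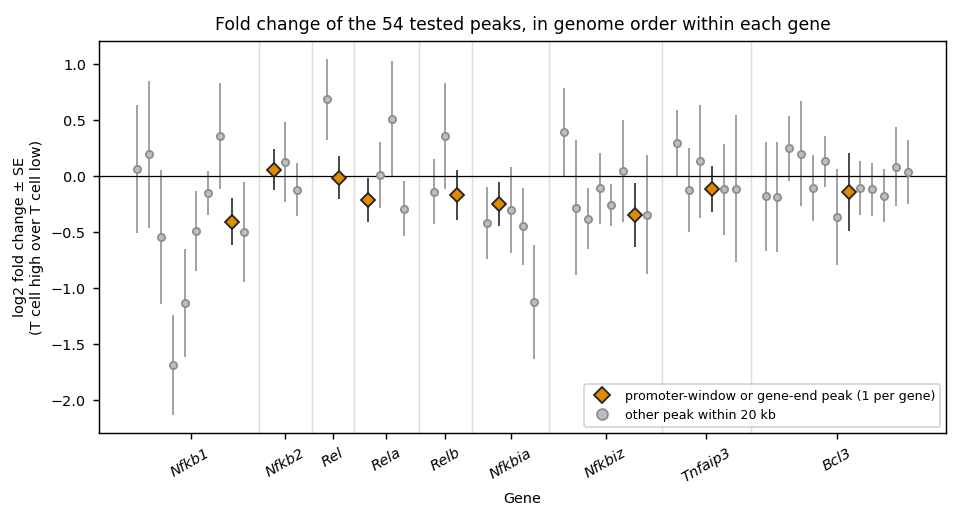
log2 fold change (T cell high over T cell low) with its SE for the 54 tested peaks, in genome order within each gene. The diamonds, 1 promoter-window or gene-end peak per gene, lie between -0.41 and 0.06, and the lowest circle is the Nfkb1 peak at -1.68.

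None of the 9 promoter or gene-end peaks passed an unadjusted p of 0.05 by edgeR, beside 6.83% of all tested peaks. Of the 9, 8 were below 0 and 1 above, beside 48.7% of all tested peaks below 0. The shares among all promoter-window peaks were not counted, so neither count is known to be particular to these genes. The largest difference was at Nfkb1, with 24.9 to 51.9 CPM (median 36.5) in T cell high clones and 32.6 to 62.9 CPM (median 54.03) in T cell low clones, for a log2 fold change of -0.41 ± 0.21 (SE, edgeR adjusted p = 0.747). At Nfkbia the promoter peak had 65.8 to 84.4 CPM (median 73.1) in T cell high clones, against 49.9 to 132.2 CPM (median 79.8) in T cell low clones (log2 fold change -0.25 ± 0.19). The T cell low range contains the whole T cell high range there. Nfkb2, the 1 promoter above 0, had 69.1 to 115.0 CPM (median 88.4) in T cell high and 59.6 to 111.2 CPM (median 82.2) in T cell low clones, for a log2 fold change of 0.06 ± 0.18. Rel had nearly equal ranges, 61.5 to 122.6 CPM in T cell high clones and 61.9 to 125.5 CPM in T cell low clones. For Rela the values were 31.5 to 39.5 CPM in T cell high and 27.9 to 59.9 CPM in T cell low clones. The Tnfaip3 promoter had 31.5 to 47.7 CPM in T cell high clones and 28.2 to 59.5 CPM in T cell low clones, again the wider range. At Relb the peak had 47.3 to 91.5 CPM (median 64.5) in T cell high clones, against 47.4 to 129.6 CPM (median 56.9) in T cell low clones, for a log2 fold change of -0.17 ± 0.23 (SE). Nfkbiz had 13.5 to 26.9 CPM (median 22.6) in T cell high and 12.8 to 43.6 CPM (median 27.8) in T cell low clones, for a log2 fold change of -0.35 ± 0.29 (SE). The Bcl3 promoter had 4.87 to 17.3 CPM (median 10.6) in T cell high clones and 6.38 to 23.2 CPM (median 11.5) in T cell low clones, for a log2 fold change of -0.14 ± 0.35 (SE). The groups overlapped at all 9 promoter or gene-end peaks.

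**Figure D3:**
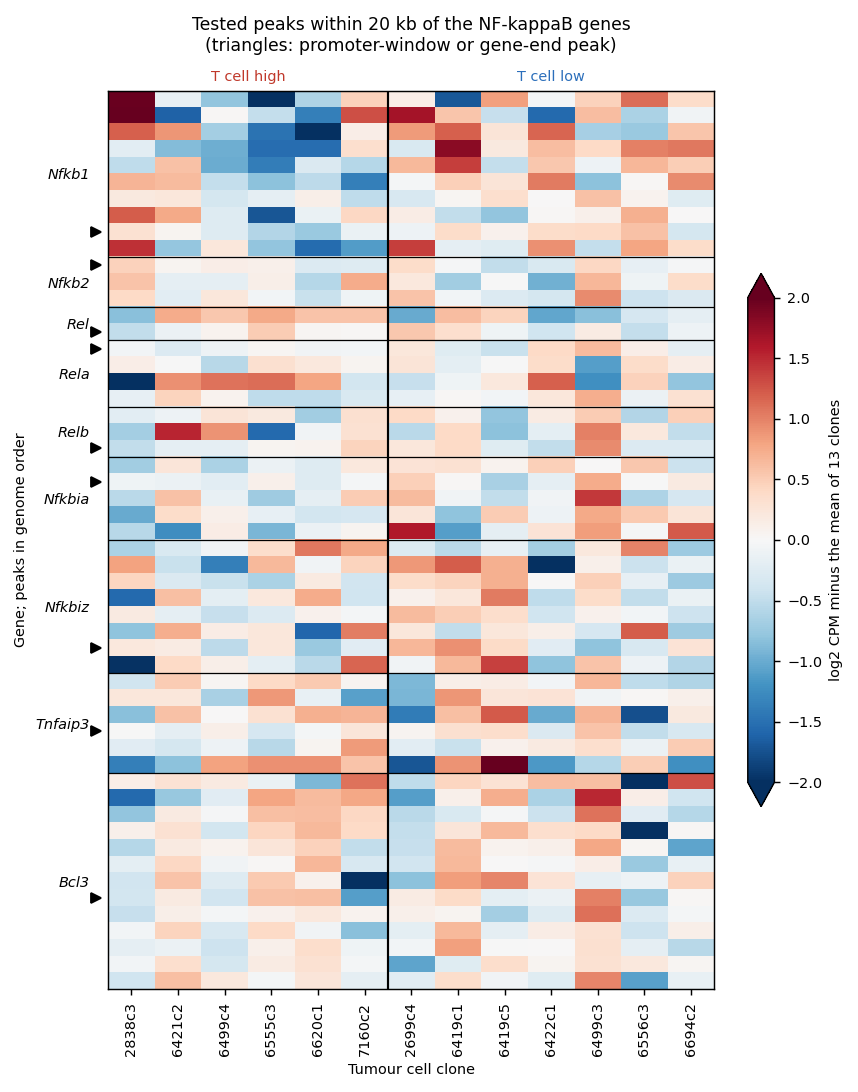
log2 CPM minus the mean of the 13 clones (colour, limited to 2 in each direction) for the 54 tested peaks (rows, in genome order within each gene) in each clone (columns), T cell high clones left of the vertical line and T cell low clones right of it. Triangles mark 1 promoter-window or gene-end peak per gene; 2838c3 is the highest clone at 5 of the 10 Nfkb1 peaks, and 6499c3 at 17 of all 54.

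Nfkb1, the p105 and p50 gene, held 2 of the 3 peaks with an unadjusted p under 0.05, both inside the gene body. The first (chr3:135628508-135629927) had 5.17, 3.03, 2.75, 1.68, 1.69 and 7.79 CPM in T cell high clones. In T cell low clones it had 4.76, 22.7, 6.98, 9.61, 8.18, 12.8 and 13.3 CPM, both in the order of the clones given above. The 2 highest T cell high clones, 2838c3 and 7160c2, reach into the range of the low clones, whose lowest was 2699c4. The log2 fold change was -1.68 ± 0.45 (SE, edgeR adjusted p = 0.534), and -1.94 to -1.39 with each clone left out in turn. DESeq2, which can replace outlying counts in the group of 7, gave an adjusted p of 0.0891.

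The second Nfkb1 peak (chr3:135658584-135659162) had 2 to 17 reads in T cell high clones and 4 to 68 in T cell low clones. It averaged 2.30 ± 1.52 CPM in T cell high clones (SD, n = 6) and 5.04 ± 2.34 CPM in T cell low clones (SD, n = 7), for a log2 fold change of -1.13 ± 0.48 (SE, edgeR adjusted p = 0.701). It passed the filter on low counts in only 8 of the 13 fits that left out a clone, and its unadjusted p rose above 0.05 with the flanking signal as an offset. Exons and introns were not analysed here.

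Summed over its 11 peaks, Nfkb1 gave the largest log2 fold change in size among the 9 genes. The sums were 247.0, 164.1, 117.5, 95.7, 108.3 and 122.7 CPM in T cell high clones, against 171.8, 190.8, 170.1, 200.2, 180.9, 199.5 and 162.3 CPM in T cell low clones. Of the T cell high clones 4 lay below every T cell low clone, 6421c2 lay just inside their range, and 2838c3 was the highest clone of all. The log2 fold change was -0.35 ± 0.18 (SE, edgeR adjusted p = 0.752).

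Leaving out 2838c3 changed that value most, and with any other clone left out it was -0.39 to -0.27. Without 2838c3 the log2 fold change was -0.58 ± 0.16 (SE, edgeR adjusted p = 0.153), a fit in which 11% of all genes had an unadjusted p under 0.05. In the same fit 4 of the 9 tested Nfkb1 peaks had an unadjusted p under 0.05, beside 10.7% of all peaks. This fit was singled out after seeing that 2838c3 had the highest sum. Leaving out the highest T cell high clone lowers that group's mean in any case, so these counts are not separate support for a difference. The flanking peaks, 20 kb to 2 Mb from Nfkb1, were 0.51 above their mean in 2838c3 and -0.59 in the T cell high clone 6555c3 (median deviation of log2 CPM), where the gene's own sum deviated by 0.64 and -0.72. With the flanking deviation as an offset in all 13 clones the log2 fold change of the sum was -0.22 ± 0.13 (SE, edgeR adjusted p = 0.941), and that of the first peak was -1.52 ± 0.43 (SE, edgeR adjusted p = 0.666).

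Also in 2838c3, an intragenic Nfkb1 peak (chr3:135604136-135604886) reached 23.5 CPM, while the other 5 T cell high clones had 0.840 to 7.79 CPM and the T cell low clones 1.254 to 12.8 CPM. A peak 19753 bp outside the gene (chr3:135711722-135713871) had 38.2 CPM in 2838c3 and 36.1 CPM in the T cell low clone 2699c4, and 4.22 to 25.9 CPM elsewhere. Its log2 fold change was -0.50 with all clones and -1.17 ± 0.40 (SE, edgeR adjusted p = 0.267) without 2838c3.

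**Figure D4:**
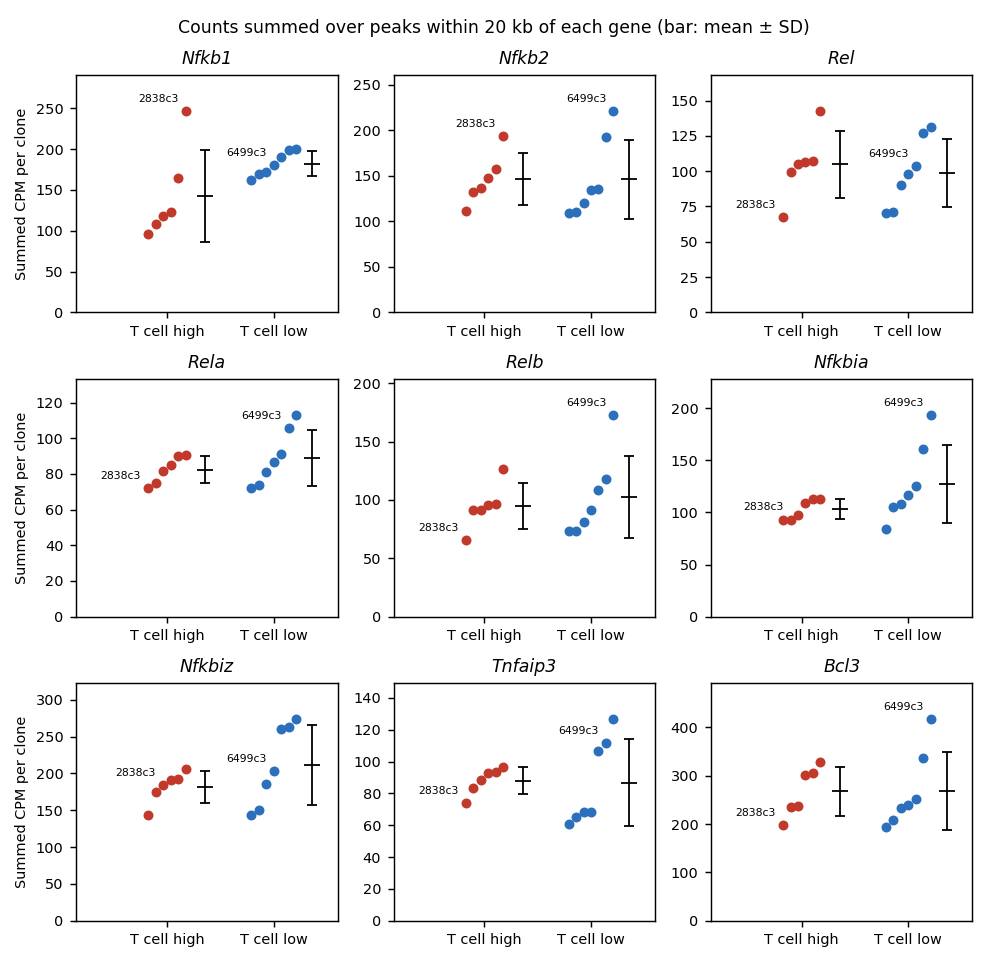
Summed CPM of all peaks within 20 kb of each of the 9 genes, 1 point per clone, T cell high left and T cell low right, with mean ± SD beside the points (n = 6 and n = 7). The clones 2838c3 and 6499c3 are named: 2838c3 is the highest point for Nfkb1 (247.0 CPM) and the lowest for Rel and Relb, and 6499c3 is the highest for Nfkb2, Relb, Nfkbia and Bcl3.

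For the 9 genes by summed counts, 0 passed an adjusted p of 0.05 and 0 an unadjusted p of 0.05 by edgeR, where 0.0119% and 6.63% of 16824 genes did. DESeq2 and limma-voom also gave 0 by adjusted p, where DESeq2 passed 15 of all 16824 genes and limma-voom 0. At an unadjusted p of 0.05 limma-voom gave 1, Nfkb1, beside 7.12% of all genes. The sum was below 0 for 6 genes and above for 3, with a median log2 fold change of -0.11, beside 56.0% of all genes below 0 and a median of -0.03. Peaks near several genes counted for each, and 29 of the 63 member peaks were also within 20 kb of another gene, among them all peaks of Nfkb2, Rela and Relb.

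Among the other factor genes, Nfkb2 averaged 146.6 ± 28.1 CPM in T cell high clones and 146.3 ± 43.5 CPM in T cell low clones (SD, n = 6 and n = 7). The log2 fold change was 0.0032 ± 0.18 (SE). Rel, the c-Rel gene, averaged 104.8 ± 23.9 CPM in T cell high and 98.7 ± 24.1 CPM in T cell low clones, for a log2 fold change of 0.08 ± 0.18 (SE). The other Rel peak (chr11:23729810-23730630), 6217 bp outside the gene and also near Pus10, had 6.20, 19.98, 17.2, 20.1, 17.7 and 17.5 CPM in T cell high clones and 5.44, 18.3, 16.1, 5.30, 6.22, 9.11 and 10.3 CPM in T cell low clones. In T cell high clones 5 values were close together and 2838c3 was far below, while the T cell low clones were split, with 6419c1 and 6419c5, which share a name number, at the top. Its log2 fold change was 0.69 ± 0.36 (SE, edgeR adjusted p = 0.756), 0.86 ± 0.34 without 2838c3 (edgeR adjusted p = 0.359), and 0.83 ± 0.37 with the 6419 clones summed to 1 library (edgeR adjusted p = 0.722). Its unadjusted p was under 0.05 in those 2 fits, and also without 6419c1 or without 6419c5, but not with all 13 clones as separate libraries.

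Rela, which encodes the p65 subunit, was the least variable gene, with an SD of log2 summed CPM of 0.20 over all clones. It averaged 82.3 ± 7.61 CPM in T cell high clones and 89.0 ± 15.6 CPM in T cell low clones (SD, n = 6 and n = 7), for a log2 fold change of -0.11 ± 0.15 (SE, edgeR adjusted p = 0.91). Relb averaged 94.7 ± 19.4 CPM in T cell high and 102.5 ± 35.3 CPM in T cell low clones (log2 fold change -0.13 ± 0.20, SE). Without the T cell low clone 6499c3, at 172.7 CPM the highest, it was 0.03.

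Of the feedback genes, Nfkbia had log2 fold changes below 0 at all 5 of its peaks, and 0 of them passed the adjusted threshold. Its sums were 93.3, 112.6, 97.3, 109.1, 93.2 and 112.9 CPM in T cell high clones and 160.5, 107.7, 84.3, 105.4, 193.7, 116.6 and 125.5 CPM in T cell low clones. T cell high clones formed a narrow band inside the T cell low range, and 2 low clones, 6499c3 and 2699c4, lay far above it. The log2 fold change was -0.31 ± 0.18 (SE, edgeR adjusted p = 0.759), and -0.19 both without 6499c3 and with the regional offset. It was -0.40 with the 6419 clones summed to 1 library, -0.39 without 6419c5 and -0.36 with a 50 kb window. In those last 3 fits the unadjusted p was under 0.05 and the edgeR adjusted p was 0.635 to 0.677. The peak farthest from the gene (chr12:55512422-55513187, 19775 bp outside) had 1.21 to 4.21 CPM in T cell high and 1.39 to 12.6 CPM in T cell low clones, on 4 to 37 reads. Its log2 fold change was -1.12 ± 0.51 (SE, edgeR adjusted p = 0.713), and limma-voom gave -0.62 (adjusted p = 0.795).

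Tnfaip3 averaged 88.0 ± 8.31 CPM in T cell high clones and 86.9 ± 27.2 CPM in T cell low clones (SD, n = 6 and n = 7), for a log2 fold change of 0.01 ± 0.19 (SE). T cell high clones ran from 73.9 to 96.4 CPM, while the T cell low clones lay on both sides of them, 4 at 61.0 to 68.3 CPM and 3 at 106.9 to 126.7 CPM. The means differed by far less than their SDs, and no T cell low clone lay within the T cell high range. Nfkbiz averaged 181.8 ± 21.6 CPM in T cell high and 211.5 ± 54.6 CPM in T cell low clones (log2 fold change -0.22 ± 0.17, SE), where 2699c4, 6419c1 and 6419c5 had 260.3 to 273.7 CPM. With the flanking signal subtracted the Nfkbiz value was 0.07, so its sign turned.

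Bcl3 had the most peaks, 16, of which 11 were also near another gene, and its own promoter-window peak held 4.55% of the summed count, against 87.0% for Rel. It averaged 267.3 ± 50.8 CPM in T cell high clones and 268.6 ± 79.9 CPM in T cell low clones (SD, n = 6 and n = 7), for a log2 fold change of -0.01 ± 0.18 (SE). The highest clone was 6499c3 at 416.8 CPM. For 7 of the 9 genes, all but Nfkb1 and Rel, the SD of the sums in T cell low clones was at least 1.5 times that in T cell high clones, an unequal spread that was not tested. The share of all genes with such a ratio was not counted, so it is not known to be particular to these genes.

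Part of these clone-to-clone differences were shared with the surrounding DNA. For each gene the median deviation of log2 CPM over tested peaks 20 kb to 2 Mb away (54 to 269 peaks) was taken as the regional signal of a clone; changes of copy number and of accessibility over a wide region cannot be told apart in it. Subtracting it lowered the SD of the summed log2 CPM for 9 of 9 genes, with a median of 0.21 after against 0.33 before, as it did for 80.1% of 16824 genes (medians 0.28 and 0.36). Relb and Bcl3, neighbours on chromosome 7, deviated by 0.85 and 0.67 in 6499c3, and their flanking peaks by 0.71 and 0.72. Nfkbiz deviated by 0.50 in 6419c5 with a flank of 0.55. Nfkbia in 6499c3 went beyond its flank, at 0.77 against 0.32, and so did Rel in 2838c3, at -0.54 against -0.22. With the regional offset 0 of the 9 genes had an unadjusted p under 0.05, beside 5.46% of all genes, and 0 of them did without it.

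**Figure D5:**
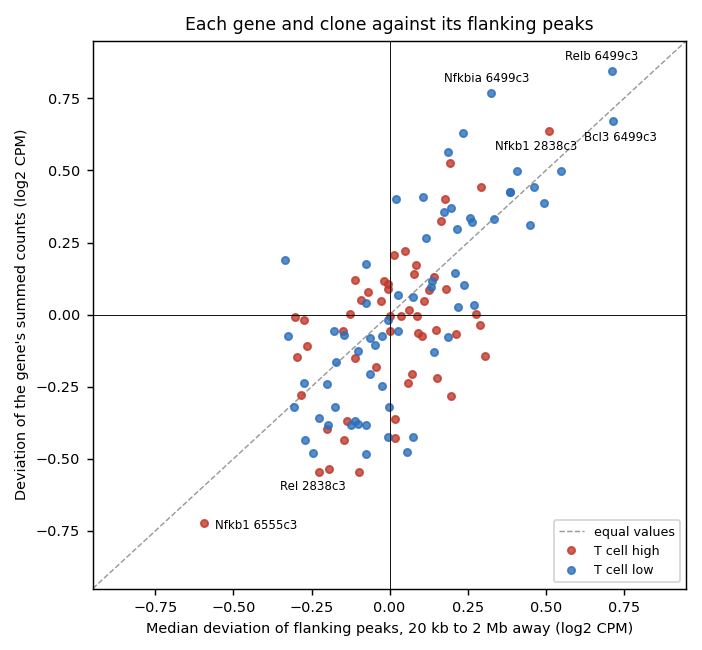
Deviation of each gene's summed log2 CPM from its mean over the 13 clones (vertical axis) against the median deviation of its flanking peaks 20 kb to 2 Mb away (horizontal axis), 1 point per gene and clone, with the line of equal values. Relb and Bcl3 in 6499c3 lie near the line at a flank of 0.71 and 0.72, and Nfkbia in 6499c3 lies above it.

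The clones 6499c4 (T cell high) and 6499c3 (T cell low) share a name number and fall in different groups, and their comparison, added after seeing the data, has 1 library on each side and no test. The sum was lower in 6499c4 for 8 of the 9 genes. The share of all genes that were lower in 6499c4 was not counted, and the neighbours Relb and Bcl3 are not independent values. Nfkbia had 97.3 CPM in 6499c4 and 193.7 CPM in 6499c3, a log2 ratio of -0.99, while its flanking peaks differed by -0.17. Nfkb1 had 117.5 CPM in 6499c4 and 180.9 CPM in 6499c3, a log2 ratio of -0.62, with flanking peaks that differed the other way, by 0.35. At Relb and Bcl3 the log2 ratios were -0.84 and -0.82 and those of the flanking peaks -0.84 and -0.83, so there the genes differed as much as their surroundings. Across the 54 tested member peaks 6499c3 was the highest clone at 31.5%, beside 10.9% of all tested peaks. Many of these peaks lie at Relb, Bcl3, Rela and Tnfaip3, whose flanking peaks deviated by 0.71, 0.72, 0.45 and 0.49 in 6499c3. The part of this regional signal in the 31.5% was not tested, and peaks of 1 region are not independent values.

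The wider pathway was read from 4 lists with 90 genes, of which 89 were tested and Cd40 was not. By edgeR 0 passed an adjusted p of 0.05, beside 0.0119% of all genes, and 3 had an unadjusted p under 0.05 (1 higher, 2 lower), beside 6.63%. DESeq2 and limma-voom also passed 0 of the listed genes by adjusted p, beside 15 and 0 of all 16824 genes. Of 21 receptors and adaptors, 11 were above 0 and 10 below. Traf3, an adaptor that restrains the non-canonical arm by marking NIK for degradation, had sums of 49.9, 49.7, 46.5, 51.6, 35.0 and 41.9 CPM in T cell high clones and 73.8, 57.8, 44.0, 57.7, 99.8, 64.7 and 77.2 CPM in T cell low clones. All T cell low clones but 6419c5 lay above every T cell high clone. The log2 fold change was -0.57 ± 0.19 (SE, edgeR adjusted p = 0.648), and -0.27 with the regional offset. Ripk1, a kinase at the TNF receptor, averaged 48.3 ± 22.3 CPM in T cell high and 67.4 ± 19.97 CPM in T cell low clones (log2 fold change -0.49 ± 0.26, SE), Tlr4, the lipopolysaccharide receptor, had 0.32 ± 0.22, and Tnfrsf1b, a TNF receptor, -0.25 ± 0.19.

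Of 18 kinases and ubiquitin ligases, 16 were below 0 and 2 above, beside 56.0% of all genes below 0. Their median log2 fold change was -0.16 beside -0.03 for all genes, and 0 passed the adjusted test, beside 0.0119% of all genes. The part of regional signal in these signs was not tested. Sharpin, a subunit of the linear ubiquitin ligase complex, had 83.5 to 144.4 CPM in T cell high clones (median 106.5) and 117.5 to 168.8 CPM in T cell low clones (median 146.6), for a log2 fold change of -0.37 ± 0.16 (SE, edgeR adjusted p = 0.717). With the regional offset it was -0.22. Tab1, which activates the kinase TAK1, had -0.25 ± 0.16, Chuk, the IKK-alpha gene, -0.23 ± 0.19, and Map3k14, the NIK gene, -0.19 ± 0.15.

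The 20 other inhibitors were split 10 to 10. Rnf11, a partner of A20, had 102.2 to 224.9 CPM in T cell high clones (median 134.2) and 88.0 to 136.9 CPM in T cell low clones (median 100.4), for a log2 fold change of 0.44 ± 0.17 (SE, edgeR adjusted p = 0.717). It was 0.19 with the regional offset and 0.27 without 6421c2, its highest clone. The deubiquitinase gene Cyld had 0.38 ± 0.21, Tnip3, which encodes an A20-binding protein, 0.45 ± 0.34, and Socs1, a cytokine signal suppressor, -0.33 ± 0.18. The 30 inducible targets were split 15 to 15 with a median of 0.0047 and 0 at an unadjusted p under 0.05. Among them the cytokine gene Il1b averaged 10.8 ± 3.12 CPM in T cell high and 7.24 ± 2.56 CPM in T cell low clones (log2 fold change 0.56 ± 0.34, SE), and the chemokine genes Ccl5 and Cxcl5 had 0.37 ± 0.27 and 0.21 ± 0.16. Csf1, a macrophage growth factor gene, had -0.31 ± 0.20.

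The genes on other chromosomes whose summed log2 CPM followed a member most closely over the 13 clones were found by Pearson's r among 15437 to 16304 genes, as a description. Bdp1 followed Nfkb1 with r = 0.95 (0.90 without the 2 clones farthest from the median, 6555c3 and 6620c1). Polr2k and Spag1 followed Relb with the same r of 0.94 because they share their peaks. Tmbim4 followed Bcl3 (r = 0.94), Naa40 followed Nfkbia (0.93, and 0.74 without 6499c3 and 2699c4), and Fstl3 followed Rel (0.91). Sync followed Tnfaip3 (0.90), Tmem201 followed Nfkbiz (0.89), Ankfy1 followed Nfkb2 (0.88), and Smim15 followed Rela (0.83). The second genes were Aox3 for Nfkb1, Zfp809 for Bcl3, Spindoc for Nfkbia, Prss57 for Rel, Gm38499 for Tnfaip3, Tnfrsf9 for Nfkbiz, 4930568D16Rik for Nfkb2 and Kmt2a for Rela, at r of 0.83 to 0.94. For each member these are the highest of at least 15437 values over 13 clones that share depth and regional signal.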

How the data were processed

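The authors deposited raw counts, whole reads in each merged peak without normalization, from featureCounts 1.5.3 per the file headers. Build mm10 and DESeq2 come per the submitters' processing notes. Not given in the sources used here were aligner, peak caller and any shift for the transposase. Reads were counted without a pair option, so both ends of a fragment can count in 1 peak. Labels list 15 samples; the table had columns for 13, and the 2 clones labelled T cell intermediate were left out. In R 4.3.3, edgeR 4.0.16 (filterByExpr by group, TMM, quasi-likelihood F-test, two-sided, Benjamini-Hochberg at 0.05) was fitted on 59252 peaks, and on 16824 protein-coding genes with counts summed over peaks within 20 kb. CPM uses TMM-scaled totals and log2 CPM a prior count of 2. The count test was also run on simulated counts drawn independently for each peak and library. Regional signal and the likeness of clones that share a name number were not simulated. DESeq2 1.42.0, limma 3.58.1 (voom), other windows, a regional offset (at least 10 flanking peaks) a block for clones that share a name number (limma-voom, added after seeing the data) and leaving out each clone were alternatives. Named genes were all members, the 4 smallest p per pathway list and the 2 most alike per member; peaks were those in promoters, with the smallest p or with the largest SD. Members and lists were chosen with earlier results of these data known. Promoter sequences are RefSeq's. Replicates are separate clones, and p-values measure the spread between them.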

Additional observations from a re-analysis of the deposited data

Results flagged for a closer look

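Each gene's sum and each of its tested peaks were examined within each group for 1 clone standing apart from the rest. This was so in 8 of 126 such tests, with 6 different clones, and chance gives about 1 in 20. The sums hold the same peaks and neighbouring peaks share regional signal, so these tests are not independent. The share of all tested peaks past the same limit was not counted, so the cases below are descriptions of single values. The measure was the gap to the nearest clone as a share of the group's range, with a limit of 0.625 for 6 T cell high clones and 0.568 for 7 T cell low clones.

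Among T cell high clones, 2838c3 was lowest at the Rel peak at chr11:23729810-23730630, with a log2 CPM of 2.78 where the other 5 had 4.16 to 4.38, a gap of 0.8604. The T cell high clone 7160c2 was lowest at a peak inside Bcl3 (chr7:19818454-19818721), with 0.70 where the others had 2.33 to 3.28, a gap of 0.6327 that rests on 1 read in 7160c2.

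Among T cell low clones, 6499c3 was highest at a peak 10874 bp outside Bcl3 (chr7:19796377-19797588), with a log2 CPM of 5.97 where the others had 4.32 to 4.86, a gap of 0.6712. The clone 6556c3 had 0 reads at both of the peaks at chr7:19789723-19790473 and chr7:19802126-19802491 outside Bcl3, for a log2 CPM of -0.62, where the other T cell low clones had 2.24 to 4.03 (gap 0.6156) and 1.6 to 2.71 (gap 0.6662). A further peak outside Bcl3 (chr7:19840510-19840962) was lowest in 2699c4, at 1.89 where the others had 2.70 to 3.29, a gap of 0.5792. The Nfkb1 peak at chr3:135604136-135604886 was lowest in 6419c1, at 0.93 where the others had 2.57 to 3.75, a gap of 0.5841. At Rela a peak just outside the gene (chr19:5648538-5649686) was lowest in 6499c3, at 2.78 where the others had 3.68 to 4.24, a gap of 0.6137, while its flanking peaks deviated by 0.45. The flanking peaks of Bcl3 deviated by 0.72 in 6499c3 and by -0.27 in 6556c3, and those of Rel by -0.22 in 2838c3; their part in these gaps was not tested.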

How the results depend on the processing

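Replicate numbers follow accession order and pair no clones. A limma-voom fit with name number as a block (6419c1 with 6419c5, 6499c4 with 6499c3; estimated correlation 0.179 for sums), added after seeing the data, gave 0 adjusted calls among members. Log2 fold changes of 25 gene sums, the 9 promoter or gene-end peaks and 18 other member peaks (smallest p or largest SD of each gene, and 3 more of Nfkb1) gave 1076 values under alternatives. Of these 1018 kept their sign and side of the threshold, 58 reversed and 0 crossed the adjusted threshold. All members and listed genes stayed at 0 calls by adjusted p under every alternative run, where these runs passed 0 to 15 of all genes and 0 to 47 of all peaks. Reversed log2 fold changes of sums were Nfkb2 with DESeq2 size factors (-0.0034), DESeq2's test (-0.0033), the 6419 clones summed (-0.063) and a 50 kb window (-0.016). Rel reversed with the gene body only (-0.015) and Ccl5 likewise (-0.20). With the regional offset Rela (0.011), Nfkbiz (0.066), Tnfaip3 (-0.037), Bcl3 (0.020), Tlr4 (-0.23) and the Nfkbiz peak with the largest SD (0.037) reversed. The Nfkb2 promoter peak reversed with the 6419 clones summed (-0.0096). The most variable Tnfaip3 peak, -0.11 with all clones, was 0.20 by limma-voom, 0.34 with the block and 0.44 with the 6419 clones summed. The most variable Nfkb1 peak, 0.20, was -0.30 by limma-voom and -0.32 with the block, and the Nfkb1 peak at chr3:135604136-135604886 was -0.017 with the block. Leaving out 1 clone at a time moved the sums of Nfkb2 from -0.097 to 0.12, Rel from -0.043 to 0.18, Relb from -0.23 to 0.035, Tnfaip3 from -0.063 to 0.12 and Bcl3 from -0.090 to 0.12, and the promoter or gene-end peaks of Nfkb2 from -0.039 to 0.14, Rel from -0.14 to 0.094, Relb from -0.28 to 0.023 and Bcl3 from -0.31 to 0.060. The peaks with the largest SD moved from -0.32 to 0.68 at Tnfaip3, -0.016 to 0.28 at Nfkb2, -0.071 to 0.63 at Relb and -0.41 to 0.040 at Bcl3, the Nfkb2 peak with the smallest p from -0.22 to 0.077, and the Nfkb1 peak at chr3:135604136-135604886 from -0.90 (without 2838c3) to 0.28. The cause was not tested. The number of members with an unadjusted p under 0.05 by summed counts was 1, Nfkb1, under limma-voom (7.12% of all genes) and with the block (7.78%). It was 1, Nfkbia, with the 6419 clones summed (7.5%) and with a 50 kb window (7.15%), and 0 to 1 with a clone left out (4.21% to 11% of all genes). For promoter or gene-end peaks it was 1 under limma-voom (8.52% of all peaks) and with the block (9.1%), and 0 to 1 with a clone left out (5.05% to 10.7%). With a clone left out it was 1 to 5 for member peaks and 2 to 7 for listed pathway genes, and 5 of these with the gene body only (6.28% of all genes). Of the 18 most alike genes, 9 were also named by Spearman's rho. Member peaks reached as few as 0 reads in a library, and what difference was detectable there was not measured.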
